A study of Mus musculus with 4 samples.

Results

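The 44 genes described here encode proteins that act from the start of DNA replication to cell division. They were taken by gene symbol from the 32285 genes counted in each library, and all 44 were found. A list of 21 genes covers the entry into and passage through S phase, a second list of 21 genes covers G2 phase and mitosis, and the other 2 genes, *Esco2* and *Neil3*, were kept in neither list. The rule names them by symbol and uses no measured value.

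Single-cell RNA-Seq was performed on spleen cells of 4 mice, with 1 library per mouse and 2 mice per genotype. Recipients were BALB/c mice that received lethal total body irradiation, 10000 WEHI-3B cells, a mouse myelomonocytic leukemia line that serves as the AML, and BM of C57BL/6 background, followed by 200000 donor Tc on day 2. Spleens were taken on day 23, Tc were enriched with a pan-Tc kit, and the cells carried an oligo-tagged Ab against H2K-b, the donor haplotype. The study's description names sorted donor Tc, whereas the sample labels name no sort. BM and Tc came from Havcr2fl/fl donors in one group and from Havcr2fl/fl;E8icre/+ donors in the other, so that floxed *Havcr2* alleles, which encode TIM-3, were shared by all 4 libraries. The *E8i* element drives cre in CD8+ cells, so CD4+ Tc, erythroid cells and progenitors were not its target. Libraries of mice without AML, without donor Tc or with unfloxed *Havcr2* were not analysed here.

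The libraries held 1511 to 6737 barcodes and 17693991 to 55045903 gene UMIs (unique molecular identifiers, each counting 1 captured RNA molecule near its 3′ end). After filters on genes, UMIs, mitochondrial share and doublets, 11513 cells were kept. Between 1 and 10 barcodes were shared by any pair of libraries. Values are given below in the order Havcr2fl/fl;E8icre/+ replicates 1 and 2, then Havcr2fl/fl replicates 1 and 2, as CPM (a gene’s UMIs scaled by the total gene UMIs of the cell class in that library). *Havcr2* itself was at 61.2, 7.93, 54.7 and 115 CPM in CD8+ Tc, so that the library labelled Havcr2fl/fl;E8icre/+ replicate 1 lay within the range of the Havcr2fl/fl libraries. Which exons are flanked by loxP sites is not given in the sources used here, and a tag at the 3′ end may lie outside the deleted part, so these values do not check the labels.

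Cells in clusters with *Cd3* UMIs in at least 50% of their cells were taken as Tc. Among these, CD8+ Tc had to show *Cd8a* or *Cd8b1* but not *Cd4* (1530, 955, 487 and 1285 cells), and CD4+ Tc the reverse (575, 625, 241 and 312 cells). The pan-Tc preparation also held erythroid-like cells (610, 453, 213 and 2016 cells) and progenitor-like cells (217, 134, 89 and 244 cells), which were named from marker genes. Whether these cells came from the donor, the recipient or the myelomonocytic AML was not tested. *Cd3e*, a chain of the TCR complex, was at 762 to 1055 CPM in CD8+ Tc and at 1.01 to 1.85 CPM in erythroid-like cells. *Mpo*, the myeloperoxidase of granulocyte precursors, was at 807 to 1352 CPM in progenitor-like cells and at 1.48 to 2.70 CPM in erythroid-like cells. Progenitor-like cells expressed little of the stem cell markers as a whole, with 229 to 330 CPM summed over 8 genes, against 6060 to 7777 CPM over 6 genes of the granulocyte-monocyte progenitor list. *Calr*, which is in the latter list, is made by nearly all cells. Marker lists of other lineages were also found in progenitor-like cells. The 7 monocyte or macrophage genes summed to 2164 to 4583 CPM and the 8 early erythroid genes to 659 to 1878 CPM. The 6 neutrophil genes spread widely between libraries, from 60.5 to 905 CPM.

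Genes of the cell cycle are transcribed in waves. E2F factors, released from RB when cells pass the restriction point, turn on genes for DNA replication and nucleotide supply. Later, the MuvB complex with B-MYB and FOXM1, together with NF-Y, turns on genes for chromosome condensation, spindle assembly and cytokinesis. Activated Tc divide rapidly on antigen, while erythroid precursors go through a fixed series of divisions that become coupled to hemoglobin synthesis and end with exit from the cell cycle before the nucleus is lost.

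The S and G2/M lists differed in their promoter sequence, which was read from RefSeq on GRCm38.p6 for 250 bases before to 50 bases after the annotated start. A promoter was held for 39 of the 44 genes. The following 5 promoters are shown because they carry the motifs by which the lists differ and belong to genes to which the results below return. Capitals mark CCAAT (read as ATTGG on the other strand), the binding word of NF-Y, TTTGAA or TTCGAA (read as TTCAAA or TTCGAA on the other strand), known as the cell cycle homology region (CHR), and the E2F words TTCCCGC or TTCGCGC, as well as TTGCCGC or else TTGGCGC, with their reverse complements, which may overlap each other.
Ccnb2, G2/M list, chr9:70421505-70421804, minus strand: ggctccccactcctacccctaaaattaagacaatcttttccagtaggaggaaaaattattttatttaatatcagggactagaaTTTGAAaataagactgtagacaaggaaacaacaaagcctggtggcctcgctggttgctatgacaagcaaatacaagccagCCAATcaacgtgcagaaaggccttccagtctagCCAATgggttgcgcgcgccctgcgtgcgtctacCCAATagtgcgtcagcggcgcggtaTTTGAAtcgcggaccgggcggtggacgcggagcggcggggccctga
Cenpf, G2/M list, chr1:189688037-189688336, minus strand: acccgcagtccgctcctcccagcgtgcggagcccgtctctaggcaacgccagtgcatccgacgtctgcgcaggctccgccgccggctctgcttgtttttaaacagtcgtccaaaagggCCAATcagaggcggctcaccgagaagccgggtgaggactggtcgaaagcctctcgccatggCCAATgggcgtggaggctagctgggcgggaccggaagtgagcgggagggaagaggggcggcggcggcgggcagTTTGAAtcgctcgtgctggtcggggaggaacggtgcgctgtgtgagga
Cep55, G2/M list, chr19:38054734-38055033, plus strand: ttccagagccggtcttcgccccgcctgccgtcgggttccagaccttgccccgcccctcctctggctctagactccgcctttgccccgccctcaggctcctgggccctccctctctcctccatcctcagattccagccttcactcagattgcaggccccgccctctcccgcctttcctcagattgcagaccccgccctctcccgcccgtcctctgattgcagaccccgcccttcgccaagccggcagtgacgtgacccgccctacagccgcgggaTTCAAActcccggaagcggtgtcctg
Mcm6, S list, chr1:128359656-128359955, minus strand: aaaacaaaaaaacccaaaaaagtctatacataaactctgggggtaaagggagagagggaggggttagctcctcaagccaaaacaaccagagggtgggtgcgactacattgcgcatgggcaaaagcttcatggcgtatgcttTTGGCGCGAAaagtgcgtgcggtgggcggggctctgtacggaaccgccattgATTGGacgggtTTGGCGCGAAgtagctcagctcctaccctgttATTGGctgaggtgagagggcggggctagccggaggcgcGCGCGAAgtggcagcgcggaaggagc
Mcm3, S list, chr1:20820263-20820562, minus strand: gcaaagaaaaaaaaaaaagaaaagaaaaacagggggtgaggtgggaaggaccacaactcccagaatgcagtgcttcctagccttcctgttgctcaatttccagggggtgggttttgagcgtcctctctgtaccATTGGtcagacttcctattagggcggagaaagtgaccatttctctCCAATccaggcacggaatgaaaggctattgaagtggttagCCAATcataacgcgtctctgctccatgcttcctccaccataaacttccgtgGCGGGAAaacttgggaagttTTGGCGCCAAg

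The *Ccnb2* promoter held 3 CCAAT words before the start, a TTTGAA that began 4 bases after it and another 167 bases before it. *Cenpf* had the same layout, with 2 CCAAT words and a TTTGAA that began 2 bases after the start. The *Cep55* promoter, shown for the first of its 2 annotated starts, held a CHR word on the other strand and no CCAAT, and *Mcm6* and *Mcm3* held CCAAT and E2F words and no CHR. Over the lists, a CHR word was present in 15 of 19 G2/M promoters (78.9%) and 2 of 19 S promoters (10.5%), beside 21.7% of the promoters of all 27025 genes in the table. An E2F word was present in 13 of 19 S promoters (68.4%) and 4 of 19 G2/M promoters (21.1%), beside 10.9% of all. CCAAT was found in 84.2% of G2/M and 57.9% of S promoters, beside 41.1% of all. Both CCAAT and CHR were found in 14 of 19 G2/M promoters (73.7%), beside 9.65% of all. These are matches of letters and no measurement of binding.

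The summed level of the 44 genes was lowest in CD4+ Tc and highest in erythroid-like cells. In CD4+ Tc, it was 3619, 2336, 1520 and 3269 CPM, with a mean of 2686 ± 947 (SD, n = 4). In CD8+ Tc, it was 4241, 2973, 2640 and 4166 CPM, with a mean of 3505 ± 818 (SD, n = 4). Within each mouse CD8+ Tc were above CD4+ Tc, but the ranges of both classes overlapped. Progenitor-like cells stood at 6428, 6167, 6285 and 5966 CPM (6211 ± 195 (SD, n = 4)), and erythroid-like cells at 8481, 8382, 8590 and 9898 CPM (8838 ± 712 (SD, n = 4)). Neither of these classes overlapped with the Tc or with each other. A level of a class does not tell whether more of its cells or each of its cells held more RNA of these genes, and both cannot be told apart from the sums alone. G2/M genes made up 52.6%, 51.8%, 56.2% and 55.2% of the S and G2/M UMIs of CD8+ Tc and 56.9%, 61.0%, 61.8% and 56.5% of those of erythroid-like cells. CD4+ Tc varied the most in this share, with 60.3%, 53.0%, 31.9% and 52.5%.

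**Figure D1:**
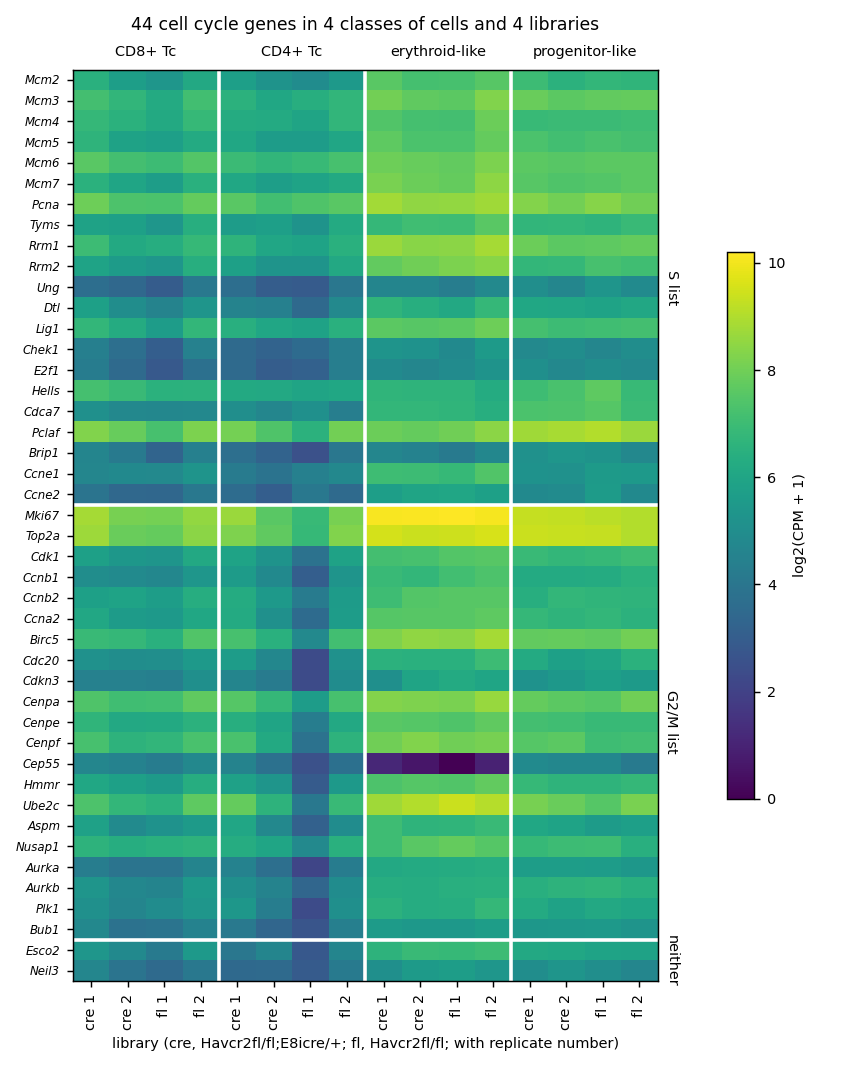
Level of each of the 44 genes (rows) in the class-by-library sums (columns) on a color scale of log2(CPM + 1), with cre for Havcr2fl/fl;E8icre/+ and fl for Havcr2fl/fl libraries. For 40 of the 44 rows the erythroid-like columns are all brighter than the CD8+ Tc columns, and *Cep55* is darkest there, at 0 to 1.18 CPM.

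Erythroid-like cells were compared with CD8+ Tc gene by gene, as a description, because their clusters were made from the same cells. The 4 libraries of erythroid-like cells lay above all 4 of CD8+ Tc for 40 of the 44 genes, beside 28.7% of the 9311 genes with a mean of at least 5 CPM. The median difference was 1.31 on the log2 scale for the members and −0.12 for all of those genes. Among the largest were *Rrm2*, the small subunit of ribonucleotide reductase (2.24 on the log2 scale), *Ccne1* and *Ccne2*, the cyclins E of the G1/S transition (2.21 and 2.23), *Aurka*, a kinase of the spindle poles (2.11), and *Ccnb1*, the mitotic cyclin B1 (2.07). *Ccne1* was at 129, 128, 112 and 170 CPM in erythroid-like cells and at 24.4, 27.9, 26.6 and 38.0 CPM in CD8+ Tc. Of the members, only *Cep55* was lower without overlap, as were 3575 of the 9311 genes. Of the S list, *Hells*, *Pclaf* and *Brip1* overlapped between both classes, and *Hells*, which encodes a chromatin remodeler of DNA methylation, was at 101, 99.1, 99.7 and 76.8 CPM in erythroid-like cells and at 145, 120, 91.3 and 93.7 CPM in CD8+ Tc.

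Progenitor-like cells lay above CD8+ Tc without overlap for 35 of the 44 genes, beside 32.3% of the 9599 genes compared, with a median difference of 0.87 on the log2 scale against 0.04 for all. *Cdca7*, a partner of HELLS that is induced by MYC and E2F, was at 156, 164, 183 and 122 CPM in progenitor-like cells and at 34.3, 25.9, 25.3 and 26.4 CPM in CD8+ Tc. Between erythroid-like and progenitor-like cells, 26 of the 44 genes were higher in erythroid-like cells without overlap, beside 15% of the 9011 genes compared. *Hells*, *Cdca7*, *Pclaf*, *Brip1* and *Cep55* were lower in erythroid-like cells without overlap, as were 2528 of the 9011 genes. *Pclaf*, the PCNA-associated factor, was at 435, 469, 520 and 402 CPM in progenitor-like cells against 240, 220, 257 and 340 CPM in erythroid-like cells.

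Within CD8+ Tc, the members concentrated in 2 of 10 clusters. The members, 82 other cell cycle genes and histone genes had been kept out of the variable genes used for clustering. Further genes that follow the cell cycle had not been kept out. Cluster 3, led by *Mcm3*, *Cdca7* and *Dtl*, held 480 cells and a summed level of 3865 ± 703 CPM (SD, n = 4). Of its S and G2/M UMIs, 25.0 to 32.7% were of the G2/M list. That share does not set it apart, since cluster 1, for example, was at 27.5 to 30.5%. The S list stood at 2011 to 3311 CPM in cluster 3, against 506 to 856 CPM in cluster 1. For the G2/M list, the values were 907 to 1423 CPM and 197 to 376 CPM. Cluster 5, led by histone genes such as *Hist1h2ap* and by *Cenpf*, held 423 cells at 12248, 11227, 12781 and 11838 CPM, with G2/M shares of 61.6 to 70.7%. Together they held 25.1%, 16.8%, 15.6% and 22.02% of the CD8+ Tc and 83.5 to 89.7% of the member UMIs.

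Clusters named from T cell markers had low member levels that lay close to each other. CD8 precursor exhausted-like cells, with *Tcf7*, *Slamf6* and *Id3* raised, were at 601, 481, 516 and 971 CPM, effector-like cells with *Gzmk* and *Prf1* at 772, 539, 652 and 918 CPM, short-term effector-like cells with *Klrg1* and *Cx3cr1* at 670, 585, 512 and 1255 CPM, and interferon-stimulated T-like cells at 656, 498, 577 and 1189 CPM. Cluster 1, which had 7 of 9 markers of terminal exhaustion raised but was left without a name, was at 986, 775, 706 and 1239 CPM. It was the highest of the clusters of at least 200 cells outside clusters 3 and 5 in its mean (926 CPM), and its range overlapped with those of the others. Cells in clusters 3 and 5 were given no such state, so the values are those of the remaining cells.

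Havcr2fl/fl replicate 2 was the highest library in each of these named clusters. Over all CD8+ Tc outside clusters 3 and 5, the members were at 766, 581, 619 and 1104 CPM, and over CD4+ Tc outside their own dividing cluster at 791, 643, 614 and 1063 CPM. The same library held most of the erythroid-like cells. All 8 intermediate erythroid markers were found in its CD8+ Tc at a summed 234 CPM, against 68.5 to 75.5 CPM in the other libraries, and all 8 early erythroid markers at 179 CPM, against 76.5 to 99.9 CPM. Late markers and hemoglobin genes had another order in CD8+ Tc. All 8 late erythroid markers summed to 1138, 509, 2776 and 931 CPM there, and the 4 of 6 hemoglobin genes with a UMI to 2502, 1170, 6101 and 1958 CPM, so that Havcr2fl/fl replicate 1 was highest in both. In CD4+ Tc, Havcr2fl/fl replicate 2 was the highest library for all of these lists, with 210, 233 and 2371 CPM for early, intermediate and late markers and 4845 CPM for hemoglobin genes. Their part in the result was not tested.

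CD4+ Tc formed 6 clusters, of which cluster 4, led by *Hist1h2ap* and *Pclaf*, held 51, 41, 12 and 34 cells. Its summed level was 11175, 10592, 7832 and 10474 CPM, and its G2/M share 65.1%, 59.2%, 33.7% and 56.1%. It made up 8.87%, 6.56%, 4.98% and 10.9% of CD4+ Tc and held 64.7 to 84.1% of their member UMIs. The other CD4+ clusters had means of 660 to 1075 CPM. Regulatory T-like cells, with *Foxp3* and *Ikzf2* raised, were at 1151, 771 and 1304 CPM in the 3 libraries with at least 5 such cells. The library with the lowest G2/M share, Havcr2fl/fl replicate 1, was the one with 12 cells in the dividing cluster. In that library, the G2/M list stood at 481 CPM in all CD4+ Tc, against 1220 to 2167 CPM in the others, while its S list stood at 1026 CPM against 1082 to 1534 CPM.

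**Figure D2:**
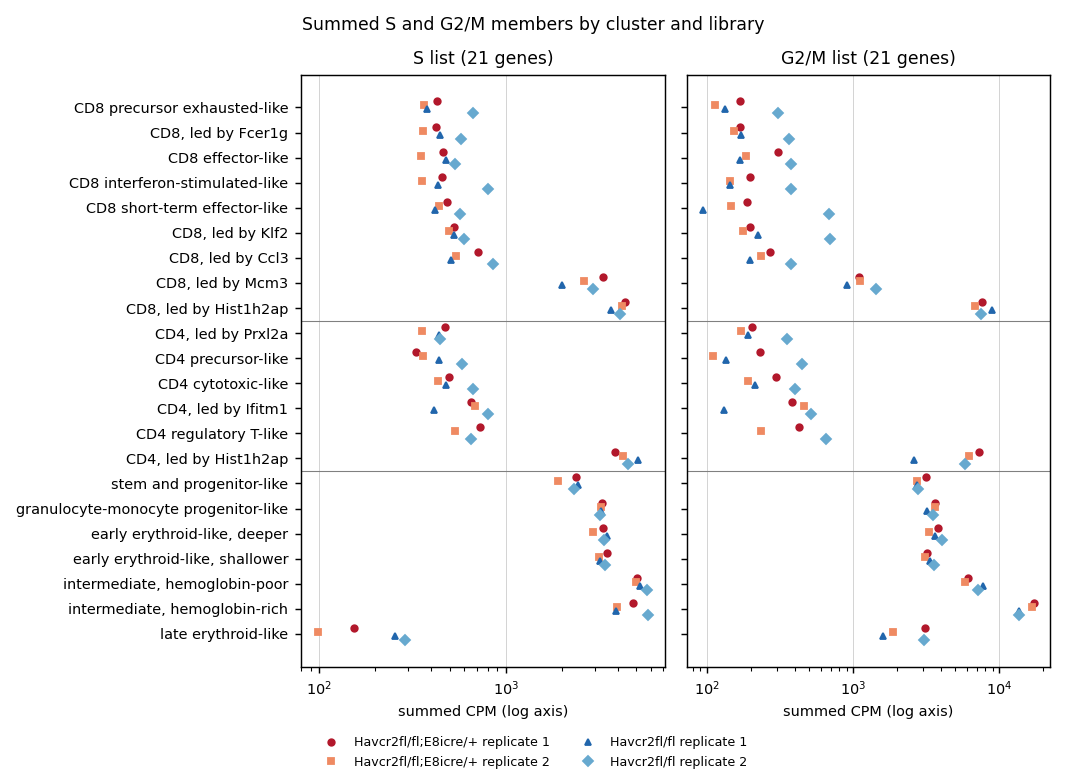
Summed CPM of the S list (left) and the G2/M list (right) on log axes, by cluster, with 1 point per library. The clusters led by *Mcm3* and *Hist1h2ap* stand above the other T cell clusters, the hemoglobin-rich intermediate erythroid-like cluster has the highest G2/M mean (15234 CPM), and late erythroid-like cells have the lowest S mean (198 CPM). Hemoglobin UMIs are in these totals. Without them, the late S mean is 488 CPM, above the 428 CPM of the CD4+ cluster led by *Prxl2a*.

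CD8+ Tc were tested against CD4+ Tc of the same mice with edgeR's quasi-likelihood test on summed UMIs, with the mouse as a block and Benjamini-Hochberg adjustment over 10302 genes. All 44 log2 differences lay above 0, and 26 genes passed the threshold of an adjusted p of 0.05. Of all genes tested, 24.4% passed, those with higher values in CD8+ Tc were 12.1% of all, and 35.3% had an unadjusted p below 0.05. The median difference of the 44 genes was 0.42 on the log2 scale. By list, 15 of 21 S genes, 9 of 21 G2/M genes and both other genes passed.

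Genes of replication licensing and fork progression were among the members with the lowest adjusted p. *Hells* was at 145, 120, 91.3 and 93.7 CPM in CD8+ Tc and at 73.5, 70.2, 61.9 and 66.7 CPM in CD4+ Tc. All CD8+ Tc libraries lay above all CD4+ Tc libraries, and edgeR gave a log2 difference of 0.80 (SE 0.09, adjusted p = 1.2e-05). *Mcm2*, a subunit of the MCM2-7 helicase, was at 88.3, 52.0, 40.4 and 70.0 CPM in CD8+ Tc and at 53.3, 37.0, 30.3 and 44.5 CPM in CD4+ Tc. Its values overlapped between mice but were higher in CD8+ Tc of each mouse, with a log2 difference of 0.65 (SE 0.08). *Dtl*, which directs the destruction of CDT1 after licensing, was at 54.3, 30.7, 22.6 and 39.5 CPM in CD8+ Tc against 22.6, 20.9, 10.1 and 27.1 CPM in CD4+ Tc. Its log2 difference was 0.94 (SE 0.14), close to that of *Brip1*, a helicase of DNA repair (0.93, SE 0.17). *Mcm3*, *Mcm4*, *Mcm5*, *Mcm6* and *Mcm7*, the other members of the helicase, *Pcna*, the sliding clamp, *Lig1*, the ligase of Okazaki fragments, and *Rrm1* and *Rrm2*, both subunits of ribonucleotide reductase, also passed, with log2 differences of 0.24 to 0.48.

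S list genes that did not pass were *Tyms*, *Ung*, *Chek1*, *E2f1*, *Cdca7* and *Ccne2*. *Cdca7* was at 34.3, 25.9, 25.3 and 26.4 CPM in CD8+ Tc and at 32.0, 25.0, 34.3 and 19.3 CPM in CD4+ Tc, with a log2 difference of 0.08 (SE 0.13). Its partner *Hells* had the lowest adjusted p of the S list and *Cdca7* the highest, but the difference between both genes was not tested.

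Among the G2/M genes, those that passed were *Mki67*, *Top2a*, *Cenpa*, *Cenpe*, *Cep55*, *Hmmr*, *Nusap1*, *Aurkb* and *Bub1*. *Mki67*, which encodes the chromosome surfactant Ki-67, was at 449, 276, 270 and 372 CPM in CD8+ Tc and at 409, 191, 117 and 277 CPM in CD4+ Tc, with a log2 difference of 0.59 (SE 0.12). *Cep55*, which recruits the abscission machinery to the midbody, was at 24.7, 22.1, 18.3 and 26.0 CPM against 22.6, 13.0, 4.71 and 12.6 CPM (log2 difference 0.74, SE 0.20). Higher values in CD8+ Tc were found in every mouse for both genes. *Ccnb1* was at 30.9, 28.8, 25.1 and 40.1 CPM in CD8+ Tc and at 48.0, 27.4, 7.40 and 37.7 CPM in CD4+ Tc, and its log2 difference was 0.04 (SE 0.21, adjusted p = 0.934 in edgeR). *Esco2*, the acetyltransferase that makes cohesion during S phase, and *Neil3*, a glycosylase that repairs interstrand crosslinks, differed by 0.89 (SE 0.18) and 0.70 (SE 0.21).

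**Figure D3:**
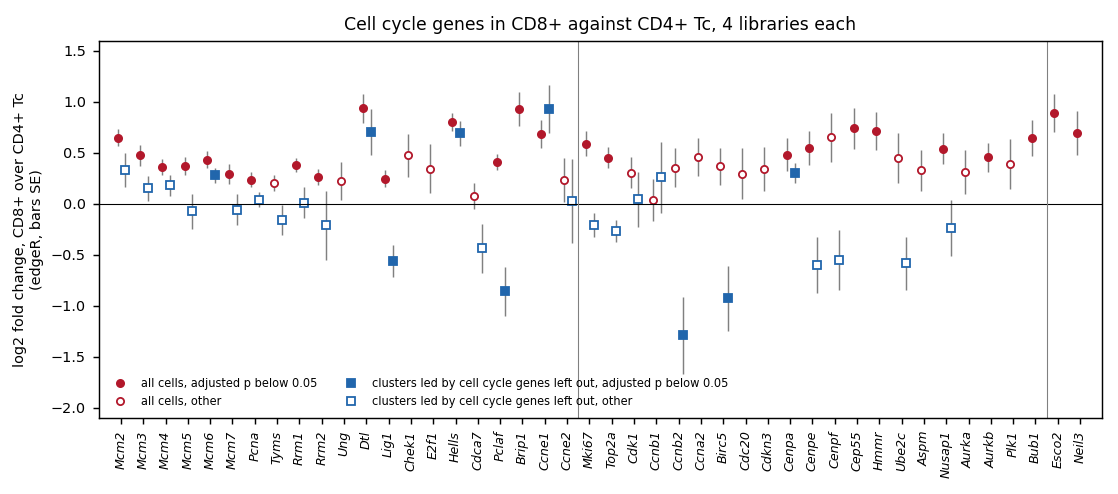
Log2 difference of each of the 44 genes between CD8+ Tc and CD4+ Tc of the same mice, with its SE, from edgeR, in all cells (red circles) and without the clusters led by cell cycle genes (blue squares), with adjusted p below 0.05 filled. All 44 circles lie above 0 and 26 are filled, whereas 9 of 28 squares are filled, 5 above and 4 below 0.

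Of the 82 other cell cycle genes of a wider list, 81 were tested, of which 47 were higher and 3 were lower in CD8+ Tc. *Rpa2*, of the single-strand binding complex RPA, was higher by 0.90 (SE 0.09), and *Ttk*, *Spc25*, *Bub1b* and *Ckap2l*, all of the kinetochore or spindle, by 0.77 to 0.89. The 3 genes that were lower were *Ccnd2* (−0.66, SE 0.06) and *Ccnd3* (−0.56, SE 0.06), which encode the D cyclins of G1, and *Cdc25b*, a phosphatase of the G2/M transition (−0.39, SE 0.10). *Cdc25b* did not pass without Havcr2fl/fl;E8icre/+ replicate 1 (−0.23), and *Ttk* did not pass without that library (0.88), Havcr2fl/fl replicate 1 (0.74) or Havcr2fl/fl replicate 2 (0.76).

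Without the dividing clusters (CD8+ clusters 3 and 5 and CD4+ cluster 4), 28 members had enough counts for the test and 9 passed, beside 21.5% of all genes tested. The clusters left out had been chosen by their leading cell cycle genes and held 21.2% of CD8+ Tc and 7.87% of CD4+ Tc. The part of this unequal choice in the result was not tested. In the remaining cells, 13 differences lay above 0 and 15 below, with a median of −0.065 against 0.42 in all cells. *Mcm6*, *Dtl*, *Hells*, *Ccne1* and *Cenpa* were then higher in CD8+ Tc, and *Lig1*, *Pclaf*, *Ccnb2* and *Birc5* were lower. *Hells* had a log2 difference of 0.69 (SE 0.12) and *Ccne1* one of 0.93 (SE 0.24) in these remaining cells, while that of *Ccnb2* was −1.29 (SE 0.37). DESeq2 called 14 of the 44 genes, beside 14.5% of all genes, and edgeR without the mouse as a block called 1, *Hells*, beside 10.1%. Leaving out Havcr2fl/fl replicate 2 left 17 calls, beside 21% of all genes, and *Mcm2*, *Mcm3*, *Mcm4*, *Mcm6*, *Rrm1*, *Dtl*, *Hells*, *Pclaf*, *Brip1*, *Ccne1*, *Mki67*, *Top2a* and *Esco2* were called with any 1 library left out. *Cep55* did not pass without Havcr2fl/fl;E8icre/+ replicate 2 or Havcr2fl/fl replicate 2 (0.70 in both), nor *Hmmr* without the latter (0.70).

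The gates leave out Tc with UMIs of both lineages or of neither. Cells of both (81, 90, 28 and 22) had member levels of 4814, 2222, 1089 and 2114 CPM, and cells of neither (157, 126, 44 and 206) had 1631, 1044, 845 and 2991 CPM. Median UMIs per cell were 3024 to 6974 in CD8+ Tc and 2745.5 to 5406 in CD4+ Tc, and higher in CD8+ Tc of each mouse.

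Erythroid-like cells fell into 5 clusters along the known order of markers, and the members differed between these stages. Early erythroid-like cells, with *Car1* and *Mt2* among their leading genes, formed a deeper cluster of 1161 cells and a shallower one of 211 cells, at 7182, 6331, 7164 and 7482 CPM and at 6794, 6318, 6598 and 7066 CPM. Intermediate erythroid-like cells formed a hemoglobin-poor cluster of 815 cells, in which 0.8 to 2.4% of all UMIs were of hemoglobin genes, and a hemoglobin-rich cluster of 502 cells with 20.4 to 33.7%. The first was at 11270, 10986, 13179 and 13115 CPM and the second at 22767, 21330, 18072 and 20059 CPM. In late erythroid-like cells (603 cells, 56.4 to 64.0% hemoglobin UMIs), the members were at 3288, 2006, 1890 and 3403 CPM. The hemoglobin-rich intermediate cluster thus lay above, and the late cluster below, each other stage in every library.

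Hemoglobin UMIs enter the total and lower the CPM of other genes, so the stages were also compared without them. The hemoglobin-rich intermediate cluster then had a mean of 28649 ± 3199 CPM (SD, n = 4) and the late cluster one of 6343 ± 1657 CPM (SD, n = 4), below the 7055 ± 498 CPM (SD, n = 4) of the deeper early cluster. Ranges of the late cluster (4599 to 7830 CPM) and of that early cluster (6338 to 7490 CPM) overlapped on this scale. Values per gene in the following paragraphs on erythroid stages are without hemoglobin UMIs.

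The lists parted along the stages. From the hemoglobin-poor to the hemoglobin-rich intermediate cluster, all 20 G2/M genes other than *Cep55* had a higher mean, with a median ratio of 2.56, whereas 9 of 21 S genes did, with a median ratio of 0.97. *Mki67* was at 1489, 1336, 1877 and 1542 CPM in the first and at 7858, 5691, 4977 and 3642 CPM in the second. *Ube2c*, the ubiquitin-conjugating enzyme of the anaphase-promoting complex, was at 437, 430, 698 and 628 CPM and then at 3079, 3536, 3484 and 2628 CPM. Both genes were higher in the hemoglobin-rich cluster in every library. These are shares of the UMIs and not UMIs per cell. The 815 hemoglobin-poor cells held 116425 UMIs of the 20 G2/M genes among 16997384, hemoglobin included. The 502 hemoglobin-rich cells held 56220 among 3765893. Per cell, these pooled counts were lower in the hemoglobin-rich cluster, both for the 20 G2/M genes and for all UMIs. The amount of RNA in a cell was not tested. Of the S list, *Rrm2* was at 334, 377, 459 and 507 CPM and then at 1132, 1145, 1095 and 1154 CPM, and *Ccne2* had means of 91.5 and 278 CPM. The opposite was seen for *Hells*, with 146, 133, 146 and 92.5 CPM and then 60.1, 29.9, 40.1 and 59.0 CPM, and for *Cdca7*, with 91.4, 112, 102 and 74.9 CPM and then 26.4, 15.7, 17.5 and 33.8 CPM. *Rrm2* and *Hells*, which are both in the S list, therefore differed between these clusters in opposite directions in all 4 libraries.

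In late erythroid-like cells, S phase UMIs were few, and G2/M genes differed among themselves. Each library's G2/M share was between 86.3% and 95.2%. The mean of each S gene in late cells was 3.04 to 16.8% of that in the hemoglobin-rich intermediate cluster, with a median of 7.81%. For the 20 G2/M genes other than *Cep55*, it was 2.37 to 50.4%, with a median of 15.9%, and 7 of them stood above 20%. All of these percentages are ratios of CPM and not of UMIs per cell. These 7 genes were *Ccnb2*, *Cenpa*, *Ube2c*, *Nusap1*, *Cenpe*, *Cdkn3* and *Mki67*, and each stood above 20% in every library. Single libraries of some S genes also did, but spread widely. *Cdca7* ran from 0 to 39.9% over the libraries, *Chek1* from 0 to 32.2%, *Hells* from 0 to 26.2% and *E2f1* from 0 to 25.5%. *Mcm7* ran from 3.22 to 22.8% and *Mcm5* from 2.08 to 20.3%, both highest in Havcr2fl/fl replicate 1. *Ccnb2*, the cyclin B2, was at 613, 745, 729 and 559 CPM in the hemoglobin-rich intermediate cluster and at 346, 319, 171 and 496 CPM in late cells. *Mki67* was at 2855, 1418, 1328 and 1734 CPM in late cells and *Ube2c* at 1560, 842, 1314 and 1527 CPM. *Aurkb*, the kinase of the chromosomal passenger complex, had the lowest ratio of the list, with 325, 322, 308 and 226 CPM before and 19.0, 2.71, 0 and 6.28 CPM in late cells, where it rested on 7 UMIs. *Top2a*, the topoisomerase that untangles sister chromatids, stood at 5.75%. Among the promoters shown above, those of *Ccnb2* and *Cenpf* share CCAAT and CHR, and *Cenpf*, a kinetochore protein, stood at 19.3%.

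**Figure D4:**
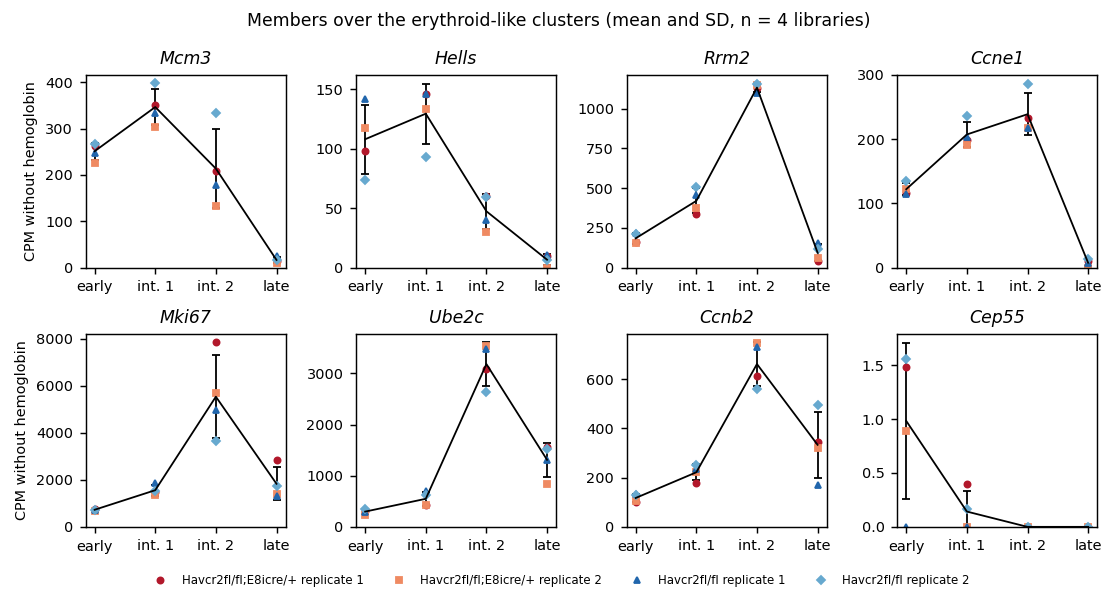
Level of 8 members in CPM without hemoglobin UMIs over 4 erythroid-like clusters (early, the deeper early cluster, int. 1, the hemoglobin-poor and int. 2, the hemoglobin-rich intermediate cluster, and late), as points per library with mean and SD (n = 4). *Mki67* has means of 1561, 5542 and 1834 CPM in int. 1, int. 2 and late cells, *Hells* means of 129 and 47.3 CPM in int. 1 and int. 2, and *Cep55* is at 0 in int. 2 and late cells.

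*Cep55* stood apart from all other members in the erythroid lineage. It gave 16, 5, 0 and 33 UMIs in erythroid-like cells, or 54 of 62292123, and a level of 1.18, 0.52, 0 and 0.95 CPM. In CD8+ Tc it was at 22.8 ± 3.4 CPM, in CD4+ Tc at 13.2 ± 7.3 CPM and in progenitor-like cells at 24.2 ± 4.8 CPM (SD, n = 4 each). Relative to 1000 UMIs of the other G2/M genes, it gave 11.4, 14.8, 12.6 and 11.6 UMIs in CD8+ Tc, 10.6, 10.8, 9.87 and 7.48 in CD4+ Tc, 8.48, 7.82, 8.16 and 5.62 in progenitor-like cells and 0.249, 0.104, 0 and 0.173 in erythroid-like cells. No erythroid-like library overlapped with a library of another class.

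Of the 54 *Cep55* UMIs, 50 were in the deeper early cluster, 1 in the shallower early cluster and 3 in the hemoglobin-poor intermediate cluster. In the hemoglobin-rich intermediate cluster, 0 *Cep55* UMIs were found beside 56220 UMIs of the other G2/M genes, which allows up to 0.0534 per 1000 (3 counts over the 4 libraries, for counting error only). CD8+ cluster 5, with 12.7 per 1000, was at least 237-fold higher than this limit, and the granulocyte-monocyte progenitor-like cluster, with 8.86 per 1000, at least 166-fold higher. Late cells had 0 *Cep55* UMIs beside 6596 of the other genes, which allows up to 0.455 per 1000. The *Cep55* gene spans 38055011 to 38074423 of chromosome 19 (GRCm38, plus strand), and its promoter is among those shown above. CEP55 is known for its role in the last step of cytokinesis, the cut of the intercellular bridge.

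Cells outside the T and erythroid lineages differed widely in their level. The stem and progenitor-like cluster was at 5617, 4745, 5239 and 5185 CPM and the granulocyte-monocyte progenitor-like cluster at 7005, 6986, 6548 and 6833 CPM, without overlap between both. Basophil or mast-like cells had a mean of 5711 ± 785 CPM and neutrophil-like cells one of 2292 ± 1241 CPM (SD, n = 4 each). In neutrophil-like cells of Havcr2fl/fl replicate 1 the level was 529 CPM, against 2510 to 3432 CPM in the other libraries. B or plasma-like cells were at 1018, 137 and 850 CPM in the 3 libraries with at least 5 such cells.

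The share of cells with at least 2 member UMIs was counted after each cell had been thinned to 2000 UMIs, since depth sets how often a gene is seen. In CD8+ Tc, 53.0% (95% Wilson interval 50.4 to 55.5), 40.7% (37.7 to 43.9), 38.7% (34.4 to 43.2) and 65.6% (62.8 to 68.3) of the cells passed this minimum. In CD4+ Tc, the shares were 43.9% (39.8 to 48.0), 37.4% (33.7 to 41.3), 41.0% (34.9 to 47.4) and 58.5% (52.4 to 64.4). Such intervals cover counting error only. Thinning left out 205 CD8+ Tc and 88 CD4+ Tc with fewer UMIs, and unthinned shares were 76.6 to 85.0% and 68.5 to 80.1%. B or plasma-like cells, with a median of 15478 UMIs, gave 5.0 to 21.5% and neutrophil-like cells, with a median of 6875 UMIs, 7.94 to 22.2%. How much of these shares came from free RNA was not tested, and the summed level of neutrophil-like cells (2292 CPM) was above the mean of each named T cell cluster. CD8 precursor exhausted-like cells gave 25.7 to 50.8%, and interferon-stimulated T-like cells, with 18.1 to 63.6%, overlapped with the shares of both. Erythroid-like and progenitor-like cells gave 82.3 to 98.2% and 92.5 to 95.5%. Thinning left out 83 erythroid-like cells, 28 of them in the hemoglobin-rich intermediate cluster. Each counted cell of CD8+ cluster 5, CD4+ cluster 4, the deeper early and both intermediate erythroid-like clusters passed.

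The order of the genes within the cycle was described in single cells by the G2/M share of the other member UMIs in all cells with a UMI of a given gene. Cells outside CD8+ clusters 3 and 5 were included, and cluster 1, for example, had an unthinned G2/M share of 27.5 to 30.5%. A low share alone therefore does not place a gene early in the cycle. After thinning to 2000 UMIs, the median of this share in CD8+ Tc was 41.99% over the S list and 74.8% over the G2/M list. *Ung*, the uracil-DNA glycosylase, was lowest with 19.5 ± 4.0% (SD, n = 4), followed by *Cdca7* with 29.9 ± 5.9%, *Dtl* with 30.1 ± 7.9% and *E2f1*, the S phase transcription factor, with 32.6 ± 9.1%. In Havcr2fl/fl replicate 1, *Ung*, *Dtl* and *E2f1* rested on 7, 8 and 5 cells. *Cdc20*, the activator of the anaphase-promoting complex, was highest with 81.8 ± 5.2%, and *Cdkn3*, *Cep55*, *Aspm*, *Plk1* and *Aurka* lay between 77.3 and 78.7%. *Pclaf* and *Rrm2* stood late in the S list, with 64.6 ± 3.8% and 58.0 ± 3.9%, and *Top2a* and *Mki67* early in the G2/M list, with 56.8 ± 4.2% and 59.9 ± 3.8%. The only members of the S list above the lowest G2/M gene were *Pclaf* and *Rrm2*.

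In erythroid-like cells the lists lay closer together, with medians of 57.7% and 71.8% after thinning. Without thinning the medians were 53.3% and 67.3% in CD8+ Tc and 56.6% and 58.3% in erythroid-like cells, whose median depth was 8206 to 18344.5 UMIs per cell and library. The gap between the lists was therefore smaller without thinning. *Hells* (48.7 ± 2.2%) and *Cdca7* (51.7 ± 3.7%) were with *Ung* (43.0 ± 3.9%) the lowest S genes in thinned erythroid-like cells. *Cep55* was seen in 1 such cell of Havcr2fl/fl;E8icre/+ replicate 2 and 3 of Havcr2fl/fl replicate 2. Its share was given for the latter library only and has no replicate there.

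**Figure D5:**
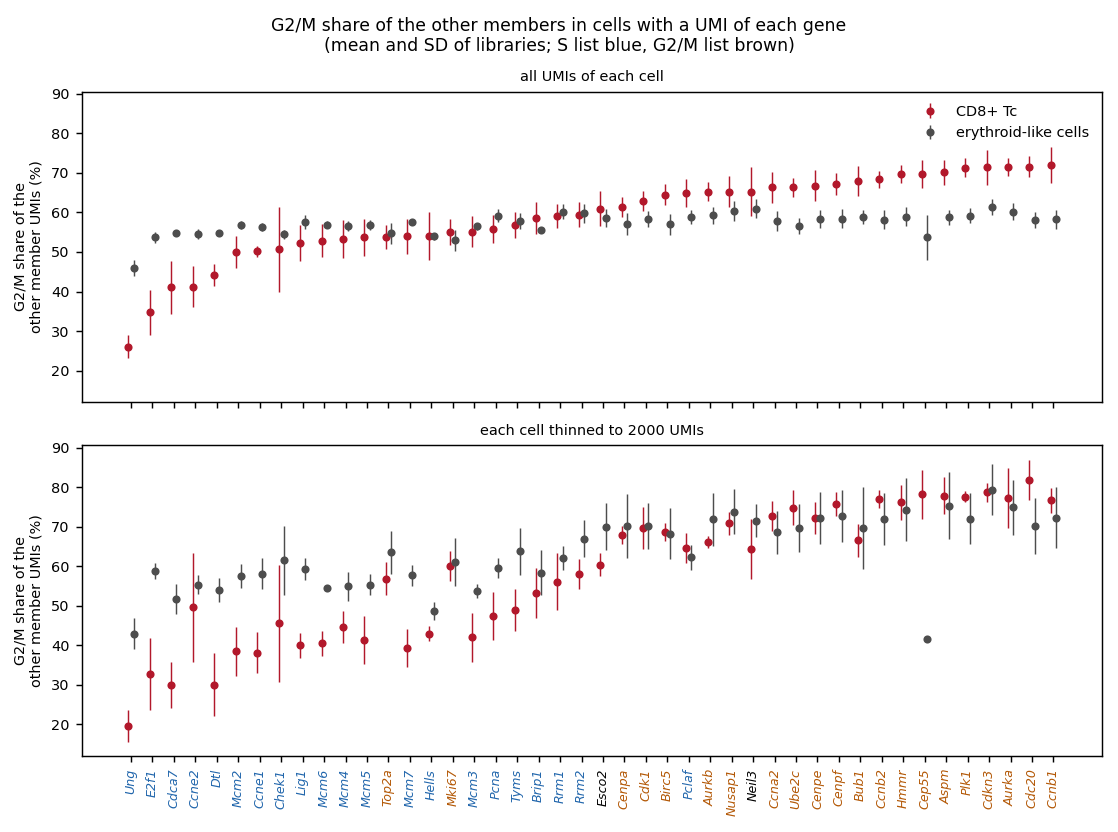
G2/M share of the other member UMIs, in percent, in cells with a UMI of each gene on the x axis, as mean and SD of the libraries, in CD8+ Tc and erythroid-like cells, from all UMIs (top) and after thinning to 2000 UMIs per cell (bottom). In thinned CD8+ Tc the shares run from 19.5% for *Ung* to 81.8% for *Cdc20*.

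The genotypes were compared in each class with edgeR on 2 libraries against 2. In CD8+ Tc, the summed members were at 3607 ± 896 CPM in Havcr2fl/fl;E8icre/+ and at 3403 ± 1079 CPM in Havcr2fl/fl libraries (SD, n = 2 each), and each group held 1 high and 1 low library. None of the 44 genes passed in edgeR, beside 0.0276% of 10873 genes, and 1 had an unadjusted p below 0.05, beside 2.68%. That gene was *Hells*, at 145 and 120 CPM in Havcr2fl/fl;E8icre/+ and at 91.3 and 93.7 CPM in Havcr2fl/fl libraries. The groups did not overlap, which 2 libraries against 2 can also give without a genotype effect. The log2 difference was 0.48 (SE 0.18, adjusted p = 0.9985 in edgeR). DESeq2 called none of the 44 genes, beside 0.0368% of all. The median of the 44 differences was 0.0015 on the log2 scale, and it was −0.25 without Havcr2fl/fl replicate 1, 0.38 without Havcr2fl/fl replicate 2, −0.20 without Havcr2fl/fl;E8icre/+ replicate 1 and 0.19 without Havcr2fl/fl;E8icre/+ replicate 2. After thinning to 2000 UMIs, 34 of the 44 differences lay below 0, with a median of −0.30. Without clusters 3 and 5, 32 members had enough counts, of which 30 had a difference below 0, with a median of −0.47. None of them passed, and 8 had an unadjusted p below 0.05, beside 3.55% of all genes tested in these cells. Havcr2fl/fl replicate 2, with its 1104 CPM, was the highest library there, as given above with its erythroid markers.

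In CD4+ Tc, none of the 44 genes passed in edgeR, beside 0.0104% of 9634 genes. An unadjusted p below 0.05 was found for 1 gene, beside 3.1% of all, and DESeq2 called none, beside 0.0519%. All 21 G2/M genes had a difference above 0, with a median of 0.70 on the log2 scale, and 15 of 21 S genes one below 0, with a median of −0.17. *Aspm*, which focuses spindle poles, was at 64.1, 26.3, 8.07 and 29.96 CPM, with a log2 difference of 1.26 (SE 0.54, adjusted p = 0.9998 in edgeR). The lowest value was that of Havcr2fl/fl replicate 1, the library with 12 cells in the dividing cluster. Without it, 35 of the 44 differences lay below 0 and the median was −0.30, without Havcr2fl/fl replicate 2 it was 1.13, and without Havcr2fl/fl;E8icre/+ replicate 2 edgeR called 4 members, beside 0.298% of all genes. After thinning to 2000 UMIs, 32 members were tested, of which 22 had a difference below 0, with a median of −0.20.

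In erythroid-like cells, 41 of the 44 log2 differences between Havcr2fl/fl;E8icre/+ and Havcr2fl/fl libraries lay below 0, with a median of −0.25, but none passed in edgeR, beside 0.0285% of 10527 genes. The 4 genes with an unadjusted p below 0.05 (beside 4.05% of all) were *Ccnb1*, *E2f1*, *Pclaf* and *Rrm2*. *Ccnb1* was at 119 and 106 CPM in Havcr2fl/fl;E8icre/+ and at 137 and 163 CPM in Havcr2fl/fl libraries, with a log2 difference of −0.55 (SE 0.16, adjusted p = 0.9813). DESeq2 called none of the 44 genes, beside 0.123%. The median difference was −0.39 without Havcr2fl/fl;E8icre/+ replicate 2 and −0.15 without replicate 1 of that genotype. After thinning to 2000 UMIs it was −0.10, with 30 of 43 differences below 0. The libraries differed in the stages they held, with 10.8 to 49.3% of the erythroid-like cells of a library in the late cluster, and Havcr2fl/fl replicates 1 and 2 were at both ends. When the 5 clusters were given equal weight, the summed members were at 10260 and 9394 CPM against 9381 and 10225 CPM, and the groups overlapped.

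In progenitor-like cells, none of the 44 genes passed in edgeR, beside 0.0187% of 10713 genes, none had an unadjusted p below 0.05, beside 2.64%, and DESeq2 called none, beside 0.187%. The median log2 difference was −0.03. Whether the genotype difference itself differed between CD8+ and CD4+ Tc was tested by their interaction, blocked by mouse. None of the 44 genes passed, beside 0.0184% of 10871 genes by edgeR and by DESeq2. An unadjusted p below 0.05 was found for 20 of the 44 genes, beside 4.28%, of which 5 were S genes with a difference above 0 and 15 were G2/M genes with one below 0. The lowest was that of *Ube2c*, with −1.44 on the log2 scale (SE 0.34, adjusted p = 0.8166). *Ube2c* was at 165, 106, 94.3 and 204 CPM in CD8+ Tc and at 220, 94.7, 16.1 and 120 CPM in CD4+ Tc, where the low value is again that of Havcr2fl/fl replicate 1. Without that library, 3 genes had an unadjusted p below 0.05, beside 4.88% of all, and after thinning 6 did, beside 4.44%.

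Outside the members, the genes whose log2 CPM over the 16 class-by-library sums was most like that of the summed members were *Ccnf*, *Kif22*, *Knl1*, *Cenph*, *Rad51ap1*, *Kif20a*, *Hist1h4i*, *Dsn1*, *Tk1* and *Mad2l1*, with Pearson's r of 0.980 to 0.992 among 9574 genes compared. The sums share libraries and fall into 4 classes, so these values are a description.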

How the data were processed

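Single-cell 3′ RNA-Seq libraries of 4 mice were made with the 10x Genomics kit v3.1. The deposited files hold whole-number UMI counts per gene and barcode, which the authors made with Cell Ranger 6.1.2 on mm10, per the submitters' processing notes, without further normalization. The authors' cell annotation was not used here, and clusters and names were rebuilt, so names may differ from those of the study.

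Barcodes had to reach 500 genes and 1000 UMIs, with a mitochondrial share of no more than 10%, and doublets called by Scrublet were removed (119 of 11632 cells). Cells were clustered with Seurat 5.3.0 after integration of the libraries, on up to 2000 variable genes. The members, the wider list of cell cycle genes and histone genes were among those taken out of these. The UMIs of each class were summed per library and tested with edgeR 4.0.16 (quasi-likelihood test, TMM, filter on low counts, Benjamini-Hochberg adjustment over all genes tested, threshold 0.05). CD8+ Tc and CD4+ Tc were compared with the mouse as a block. DESeq2 1.42.0 was an alternative. The edgeR test was first run on simulated data for the genotype in CD8+ Tc and erythroid-like cells and for CD8+ against CD4+ Tc. The other genotype tests, the interaction and DESeq2 were not simulated. With 2 mice per genotype, p-values rest on the spread between few animals, and an exact permutation test of 2 against 2 could not pass the threshold.

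Members and lists were chosen with earlier results of these data known. Any member could be named, those with the lowest adjusted p or highest level of a list first, with up to 5 genes of the wider list in each direction and the 10 other genes most correlated with the summed members. Promoter sequences came from RefSeq on GRCm38.p6. Replicate numbers of both genotypes came from the labels and were not shown to pair mice.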

Additional observations from a re-analysis of the deposited data

Results flagged for a closer look

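The summed members, the S list, the G2/M list and the G2/M share were each looked at in all pairs of classes. Only 3 of these comparisons are given here, picked because the genotypes did not overlap in either class and had the opposite order in each. With 2 libraries per genotype, such an order can also arise from the spread between mice. The difference between the classes in these summed values was not tested in any of them. Gene by gene, the interaction of genotype with CD8+ or CD4+ Tc passed in edgeR for none of the 21 G2/M genes, and 15 had an unadjusted p below 0.05 with a difference below 0. Such a p was found for 4.28% of all genes. Of all 44 members, 20 had one in the main test, 6 after thinning (beside 4.44% of all genes) and 0 with a replicate block in place of the mouse. The G2/M list was lower in Havcr2fl/fl;E8icre/+ than in Havcr2fl/fl erythroid-like cells, by −473.735 CPM, and higher in progenitor-like cells, by 235.29 CPM. The erythroid-like cells differed in stage, with 10.8 to 49.3% of them in the late cluster per library. The G2/M share of the S and G2/M UMIs was higher in Havcr2fl/fl;E8icre/+ CD4+ Tc, by 14.4498 percentage points, and lower in CD8+ Tc, by −3.5095 percentage points. The latter value of CD8+ Tc (−3.5095) also stood opposite to that of progenitor-like cells, which was 2.4667 percentage points. In CD4+ Tc, the library with the lowest share, Havcr2fl/fl replicate 1, held 12 cells in the cluster led by histone genes. Replicates 2 of both genotypes lay close together there, at 53.0% in Havcr2fl/fl;E8icre/+ and 52.5% in Havcr2fl/fl.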

How the results depend on the processing

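The number of members called in CD8+ against CD4+ Tc (26) was 14 with DESeq2, 9 of 28 tested without the clusters led by cell cycle genes, 1 with no replicate block for the mouse, and 17 to 24 with 1 library left out. Of all genes tested, 24.4% passed in the main test, 14.5% with DESeq2, 21.5% without those clusters and 10.1% with no block. Leaving out 1 library gave 1702 to 2174 calls over all genes. The replicate numbers of the labels were not shown to pair mice, and with them as a replicate block 0 members were called in each genotype comparison. With a crossed replicate block, chosen after seeing the data, 1 member was called in CD4+ Tc, beside 16 of 9634 genes. In CD4+ Tc, no filter on low counts gave 3 calls and leaving out 1 library 0 to 4, and in the interaction these gave 10 and 0 to 1. Over all genes, the fits with no filter on low counts called 47 of 15896 in CD4+ Tc and 54 of 17936 in the interaction. Without the clusters led by cell cycle genes, 15 of 28 differences lay below 0 (median −0.065), those of *Mki67* (−0.21) and *Cdca7* (−0.44) included, and that of *Ccnb1* lay below 0 under the stricter cell filter (−0.0033), without Havcr2fl/fl;E8icre/+ replicate 2 (−0.00071) and without Havcr2fl/fl replicate 1 (−0.17). With 1 library left out, that of *Ccnb1* ranged from −0.17 to 0.40. The cause was not tested. Calls over all genes ranged from 1042 to 3089 in CD8+ against CD4+ Tc (2515 in the main test), and in genotype comparisons from 0 to 98 in CD8+ Tc (3), 0 to 47 in CD4+ Tc (1), 0 to 97 in erythroid-like cells (3), 1 to 94 in progenitor-like cells (2) and 0 to 54 in the interaction (2). Thinning to 2000 UMIs, which weights cells equally, gave summed levels of 2135 CPM in CD8+ Tc, 1548 in CD4+ Tc and 5632 in progenitor-like cells, and G2/M shares of 48.5% in CD8+ Tc and 65.9% in erythroid-like cells. The erythroid-like level was 9600 CPM without hemoglobin and 9815 CPM with equal weight per cluster, and its highest cluster 28649 CPM without hemoglobin. The highest CD8+ cluster was at 12681 CPM when cell cycle genes were kept in the clustering. Shares of cells with a minimum of 1 UMI, 3 UMIs and 2 UMIs without thinning were 77.7, 33.1 and 80.2% in CD8+ Tc, 74.9, 25.3 and 73.1% in CD4+ Tc, and 97.9, 90.9 and 99.7% in progenitor-like cells. The gap between the lists in the order of genes was 32.8, 30.7 and 14.1 percentage points after thinning in CD8+ Tc, CD4+ Tc and erythroid-like cells. The 8-letter E2F words were in 5.26% of G2/M promoters and 47.4% of S promoters, beside 2.6% of the promoters of all genes. With 2 mice per genotype, depth was not the only limit of the genotype comparisons.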
